A study of Mus musculus with 4 samples.

Results

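A set of 10 genes that mark the differentiation of monocytes into macrophages were followed in *in vitro* myeloid-derived suppressor cells (MDSCs) grown with or without granulocyte colony-stimulating factor (G-CSF). They were *C1qa*, *C1qb*, *C1qc*, *Apoe*, *Mrc1*, *Gpnmb*, *Trem2*, *Cd68*, *Msr1* and *Mertk*, a list set by name, and these 10 of the 24346 genes in the deposited tables were all expressed highly enough to be tested. *In vitro* MDSCs are immature myeloid cells that appear when bone marrow cells are cultured with granulocyte-macrophage colony-stimulating factor (GM-CSF). Bone marrow came from C57BL/6J mice aged 6 to 8 weeks, and every culture received 40 ng/ml GM-CSF for 4 days. The Control group (n = 2) received GM-CSF alone, and the G-CSF group (n = 2) received 5 ng/ml G-CSF in addition. The cells were sequenced in bulk, without separation into monocytic and granulocytic MDSCs, and the study describes the libraries of a group as biological replicates.

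The libraries held between 12.45 and 15.6 M reads, estimated from the smallest steps in the values, and between 14674 and 14890 genes stood above 0 in each. Values are FPKM, reads divided by the length of the transcript and by the depth of the library, so levels of different genes can be set side by side. Pearson's r, taken over 10557 expressed genes, was 0.9953 between the Control libraries and 0.9952 between the G-CSF libraries, and lay between 0.9856 and 0.9883 for the other pairs. The extraction notes in the labels speak of liver tissue. The liver genes *Alb*, *Apoa1*, *Ttr*, *Serpina1b*, *Fga* and *Fgb* were listed at 0 in all 4 libraries. The others of the same list were above 0. *Apoa2*, *Cyp2e1* and *Serpina1a* had means over all libraries of 1.17, 0.724 and 0.0778 FPKM. *Hp* and *Trf*, which myeloid cells also express, had means of 405 and 108 FPKM.

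Macrophages arise from monocytes or from embryonic precursors, and as they mature they take on the handling of debris. Complement component C1q is the recognition molecule of the classical complement pathway, and tissue macrophages are its main source. Scavenger and lectin receptors bind modified lipoproteins and glycans, Trem2 and Apoe belong to the handling of lipids, and Mertk is a receptor through which macrophages engulf dying cells. The genes are therefore described below as C1q chains, lipid-handling genes, receptors for uptake and the lysosomal marker Cd68.

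The 10 markers spanned more than 2 orders of magnitude in level, from *Cd68* at 350 ± 4.54 FPKM (SD, n = 2) in Control to *C1qa* at 1.17 ± 0.516 FPKM. *Cd68*, *Gpnmb*, *Msr1*, *Mrc1* and *Trem2* were at or above 40 FPKM in every library, and *C1qb*, *Mertk*, *C1qc*, *Apoe* and *C1qa* were below 12 FPKM in every library. From highest to lowest, this order was the same by group mean in Control and in G-CSF. Within a group, the values of neighbours in the order overlapped between *Mertk* and *C1qc* in Control and between *C1qc* and *Apoe* in G-CSF, so these neighbours did not differ beyond their spread there, and no other neighbours overlapped in either group. *C1qa* rested on an estimated 7 to 17 reads a library and *Apoe* on 28 to 46, whereas *Mertk* rested on 222 to 422 and *Gpnmb* on 8696 to 14010. These read numbers limit precision for *C1qa* most of all, with a counting error of 0.46 on its log2 fold change.

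**Figure D1:**
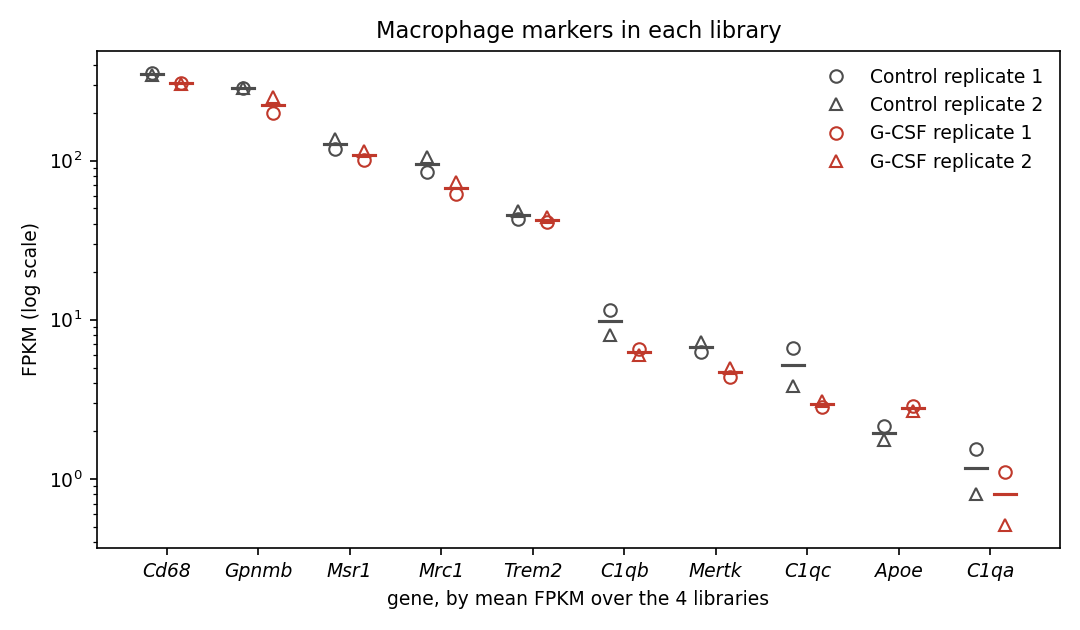
FPKM of the 10 markers in each library, on a log axis, with Control and G-CSF libraries as points and the group means as lines. *Cd68* lay between 303 and 353 FPKM and *C1qa* between 0.512 and 1.54 FPKM, and the order of the group means was the same in both groups.

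With G-CSF, 5 of the 10 markers fell, namely *Cd68*, *Mertk*, *Mrc1*, *Gpnmb* and *C1qb*. None of the 5 fell by more than 2-fold. At an adjusted p under 0.05 in limma, 0.895% of all genes tested fell by more than 2-fold. At the same threshold, 1.43% passed that fold in either direction. Among the 5 markers, the largest fall in fold was that of *C1qb*, at 0.657 of its Control level on the log2 scale fitted. The smallest was that of *Cd68*, at 0.873. A gene was called when its adjusted p was under 0.05 in limma (two-sided, Benjamini-Hochberg over the 11958 genes tested), and by this rule 11.4% of all genes tested were lower and 12.6% higher. Fold changes are on the scale of log2(FPKM + 0.1), which understates those of low genes. No marker was called higher, *Apoe* being the only marker above Control at an unadjusted p under 0.05, where limma voom on estimated reads had 0 such markers. The log2 fold change was negative for 9 markers, and the median over the 10 was -0.42, beside 0.00 over all genes tested. The markers were chosen with earlier results of these data known, so comparisons with all genes are descriptions and not tests. For 7 markers both G-CSF libraries lay below both Control libraries, a pattern that 32.6% of all genes tested showed. For *Apoe* both lay above, as for 33.7% of all genes, so that 8 of 10 markers did not overlap between the groups beside 66.3% of all genes tested. In bulk libraries, fewer cells of a type and less RNA per cell cannot be told apart. By flow cytometry of such cultures, the study reported no effect of G-CSF on the percentages of macrophages, dendritic cells and MDSCs. It also reported a larger proportion of monocytic MDSCs and a smaller one of granulocytic MDSCs. The part of cell numbers in the changes of the markers was not tested.

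**Figure D2:**
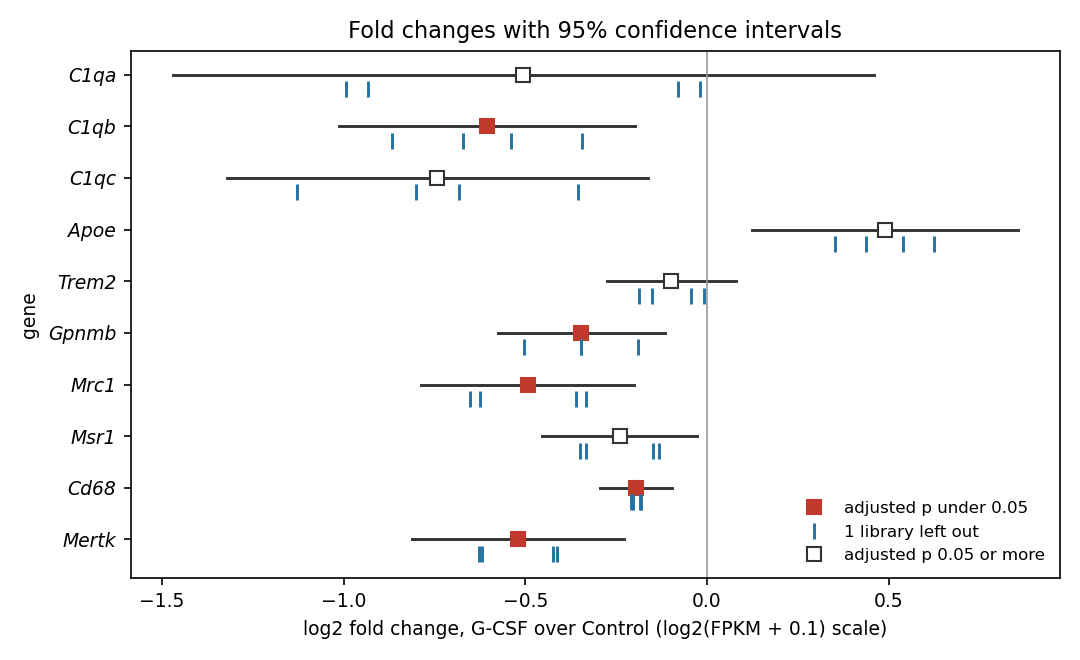
Log2 fold change of each marker between G-CSF and Control (limma, squares, filled where the adjusted p was under 0.05), with its 95% confidence interval (black lines) and the values with 1 library left out (blue ticks). The intervals of the 5 called markers lay below 0, that of *Apoe* lay above 0, and those of *C1qa* and *Trem2* crossed 0.

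*C1qa*, *C1qb* and *C1qc* encode the A, B and C chains, which assemble into a single C1q molecule. The 3 genes lie side by side on the minus strand of chromosome 4, in the order *C1qb* (GRCm38 chr4:136880129-136886187), *C1qc* (chr4:136889804-136893065) and *C1qa* (chr4:136895917-136898803). Gaps of 3616 and 2851 bases separate them. *C1qb* stood at 11.5 and 8.004 FPKM in Control replicates 1 and 2 and at 6.58 and 5.99 FPKM in G-CSF replicates 1 and 2. The groups did not overlap, and Control replicate 1 was the highest library. *C1qb* fell with a log2 fold change of -0.61 ± 0.17 (SE, adjusted p = 0.0449, limma).

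*C1qc* stood at 6.61 and 3.83 in Control libraries and 2.85 and 3.10 FPKM in the G-CSF group. Again the groups did not overlap and Control replicate 1 stood highest. Its log2 fold change, -0.74 ± 0.24 (SE), was the lowest of the 10 markers but missed the threshold (adjusted p = 0.0678, limma, 95% confidence interval -1.32 to -0.16). *C1qa* stood at 1.54 and 0.806 in Control libraries and 1.10 and 0.512 FPKM in G-CSF cultures. Its groups overlapped, and the interval of its log2 fold change ran from -1.47 to 0.46, so it held both 0 and the value of *C1qc*, and a difference of that size was not detectable at this depth. The ratio of *C1qb* to *C1qa* in FPKM ranged from 7.51 to 9.93 in Control and from 5.97 to 11.7 in G-CSF libraries, and that of *C1qb* to *C1qc* ranged from 1.74 to 2.09 and from 1.93 to 2.31. Both ratios overlapped between the groups. Below 1.6 FPKM, the level of *C1qa* was the lowest of the chains in every library.

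*Apoe* encodes apolipoprotein E, a secreted carrier of lipids that macrophages produce when they load cholesterol. It lies on the minus strand of chromosome 7 (GRCm38 chr7:19696109-19699188). It stood at 2.15 and 1.76 in Control libraries and at 2.88 and 2.67 FPKM in the G-CSF group. Unlike the other markers, both G-CSF libraries lay above both Control libraries. The log2 fold change was 0.49 ± 0.15 (SE) and missed the threshold (adjusted p = 0.0612, limma, interval 0.12 to 0.85).

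*Trem2* encodes a lipid-sensing receptor that signals through the adaptor Tyrobp (also called DAP12), and it lies on chromosome 17 (GRCm38 chr17:48346401-48354147, plus strand). *Trem2* stood at 42.7 and 48.3 in Control libraries and at 40.9 and 44.1 FPKM in G-CSF cultures. The groups overlapped, and the log2 fold change was -0.10 ± 0.07 (SE, adjusted p = 0.366, limma, interval -0.27 to 0.08). Its adaptor gene was far more abundant. *Tyrobp* stood at 1768 and 1761 in Control libraries and 1275 and 1406 FPKM in G-CSF libraries, and it fell with a log2 fold change of -0.40 ± 0.06 (SE, adjusted p = 0.00956, limma). The ratio of *Trem2* to *Tyrobp* in FPKM was 0.0242 and 0.0275 in Control and 0.0321 and 0.0313 in the G-CSF group, the G-CSF libraries both higher. Tyrobp also serves receptors of neutrophils and natural killer cells.

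*Gpnmb* encodes a transmembrane glycoprotein that builds up in lipid-laden macrophages and in cells under lysosomal stress, and it was the second most abundant marker (GRCm38 chr6:49036546-49070929, plus strand). The Control libraries stood at 283.9 and 283.6 FPKM, and the G-CSF libraries at 200.1 and 248.9 FPKM. The groups did not overlap, and the G-CSF libraries lay farther apart than the Control libraries. *Gpnmb* fell with a log2 fold change of -0.35 ± 0.10 (SE, adjusted p = 0.0438, limma).

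*Mrc1* encodes the mannose receptor CD206, an endocytic lectin of tissue macrophages and dendritic cells (GRCm38 chr2:14229392-14332057, plus strand). It stood at 84.9 and 106 in Control libraries and 61.4 and 73.8 FPKM in G-CSF cultures. The G-CSF libraries lay below both Control libraries, and *Mrc1* fell with a log2 fold change of -0.49 ± 0.12 (SE, adjusted p = 0.0314, limma).

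*Msr1* encodes scavenger receptor A, which takes up modified low-density lipoprotein (GRCm38 chr8:39581685-39642673, minus strand). It stood at 118 and 137 in Control libraries and 101 and 115 FPKM in G-CSF libraries. The gap between the nearest libraries of the groups was smaller than the gap within either group, and the log2 fold change of -0.24 ± 0.09 (SE) missed the threshold (adjusted p = 0.0937, limma, interval -0.45 to -0.03).

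*Mertk* encodes a receptor tyrosine kinase that recognises dying cells through the bridging proteins Gas6 and protein S (GRCm38 chr2:128698956-128802894, plus strand). It stood at 6.26 and 7.28 in Control libraries and 4.37 and 5.01 FPKM in the G-CSF group. All G-CSF values lay below the Control values, and *Mertk* fell with a log2 fold change of -0.52 ± 0.12 (SE, adjusted p = 0.0268, limma). The ligand genes were low. *Gas6* was at 0.917 ± 0.252 FPKM in Control and 0.551 ± 0.0170 FPKM in G-CSF cultures (SD, n = 2), and *Pros1*, which encodes protein S, at 2.59 ± 0.0799 and 2.34 ± 0.301 FPKM. Neither ligand gene was called (adjusted p = 0.111 and 0.494, limma). *Axl*, a receptor of the same family, stood well above *Mertk*, and the ratio of *Mertk* to *Axl* in FPKM was 0.0697 and 0.0881 in Control and 0.0722 and 0.0903 in G-CSF libraries, overlapping between the groups.

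*Cd68* encodes macrosialin, a glycoprotein of the lysosomal membrane that is abundant in all mononuclear phagocytes (GRCm38 chr11:69664213-69666153, minus strand). It stood at 353 and 346 in Control libraries and 307 and 303 FPKM in the G-CSF group. Both groups were narrow and did not overlap. *Cd68* had the smallest adjusted p of the markers and, among the called markers, the smallest fall, with a log2 fold change of -0.20 ± 0.04 (SE, adjusted p = 0.0206, limma). Relative to *Cd68*, *Mrc1* stood at 0.241 and 0.306 in Control and 0.200 and 0.243 in G-CSF cultures, and *Msr1* at 0.335 and 0.396 in Control and 0.329 and 0.379 in G-CSF libraries. Both ratios overlapped between the groups.

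The markers did not share a single pattern over the 4 libraries. Against its own mean over all libraries, *C1qb* was 0.56 above in Control replicate 1 and 0.04 above in Control replicate 2 on the log2 scale, and *C1qc* was 0.76 above and 0.02 below. *Mrc1* went the other way within Control, at 0.09 above in replicate 1 and 0.41 above in replicate 2. The C1q chains were thus highest in Control replicate 1, and *Mrc1*, *Msr1*, *Mertk* and *Trem2* were highest in Control replicate 2. *Apoe* was highest in G-CSF replicate 1. Over these 4 libraries, the genes whose centred log2 values came nearest to the mean profile of the C1q chains were *Lta*, *Igsf9*, *Adra2a*, *H2-K2* and *Hepacam2*, with root mean square differences of 0.03 to 0.06 among 10778 genes ranked. None of the 5 was called by limma, and their adjusted p ran from 0.0593 to 0.157.

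**Figure D3:**
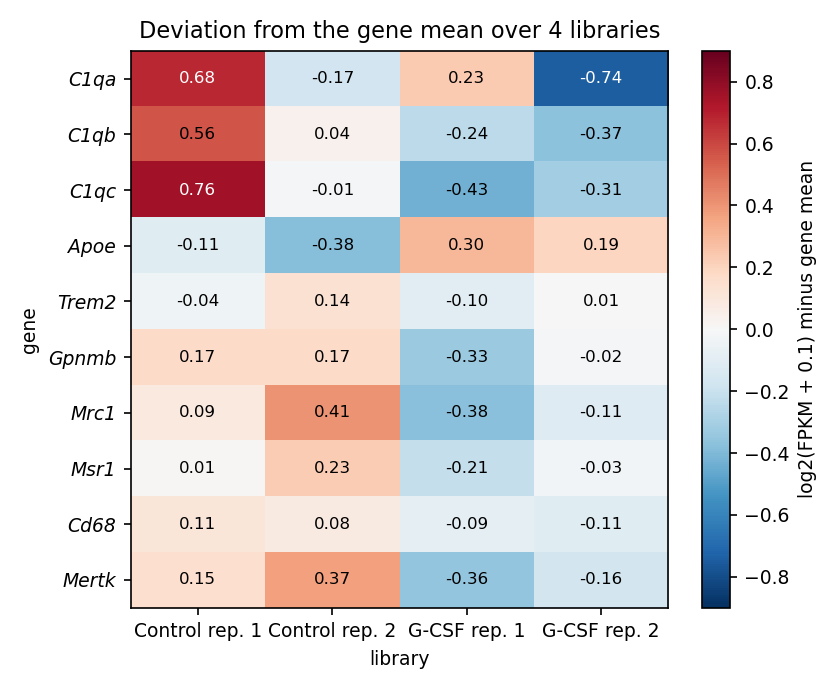
Difference of each marker from its own mean over the 4 libraries, in log2(FPKM + 0.1), by library. The C1q chains peaked in Control replicate 1, *Mrc1* peaked in Control replicate 2 at 0.41, and *Apoe* was above its mean in both G-CSF libraries.

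The calls depended on the filter and on single libraries. With no filter on low genes, limma called only *Cd68* lower (4.58% of all genes tested), and with at least 1 FPKM required in 2 libraries it called *Cd68* and *Mertk* (10.6%). Under voom on estimated reads, *C1qb* alone of the 5 was lost. Without Control replicate 1, limma called 3 markers lower (*Mrc1*, *Msr1* and *Mertk*), where 5.81% of all genes tested were called lower. Without Control replicate 2 it called 2 (*C1qb* and *C1qc*; 7.73% of all genes), and without G-CSF replicate 2 it called 3 (*Gpnmb*, *Mrc1* and *Mertk*; 8.40%). Without G-CSF replicate 1 no marker was called. The log2 fold changes there were -0.67 for *C1qb*, -0.19 for *Gpnmb*, -0.36 for *Mrc1*, -0.20 for *Cd68* and -0.42 for *Mertk*. These fits have 1 library in a group, which is assumed to vary like the other group. The log2 fold change of *C1qb* ranged from -0.87 without Control replicate 2 to -0.34 without Control replicate 1, that of *Gpnmb* reached -0.19 without G-CSF replicate 1, and that of *Cd68* ran from -0.21 to -0.18, and no marker changed direction.

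The wider genes of macrophage biology were taken from 8 lists that hold 150 genes, of which 122 were tested. With G-CSF, 50 of the 122 were called lower, which is 41.0% beside 11.4% of all genes tested, and 8 were called higher, which is 6.56% beside 12.6%. The median log2 fold change of the 122 was -0.24. These calls fell in number with any library left out, as did those over all genes tested. Many of these genes are also active in neutrophils, monocytes or dendritic cells, and the lists were written with earlier results of these libraries known.

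Of the other complement genes, 9 of 18 tested fell and 2 rose. *Itgb2* and *Itgam*, the subunits of complement receptor 3, which monocytes and neutrophils also carry, fell with log2 fold changes of -0.36 ± 0.04 and -0.35 ± 0.05 (SE, adjusted p = 0.00519 and 0.00568, limma). *C5ar1*, the receptor for the fragment C5a, fell by 0.37 on the log2 scale. The genes that rose were *C1qbp*, which encodes a mostly mitochondrial protein first isolated by its binding to C1q, and *Calr*, the chaperone calreticulin. Their log2 fold changes were 0.40 and 0.27. *C1ra*, a protease gene of the C1 complex, fell from 5.31 ± 0.214 to 3.94 ± 0.472 FPKM (SD, n = 2, adjusted p = 0.0479, limma), and its partner *C1s1* stood at 1.09 ± 0.248 and 0.718 ± 0.0778 FPKM and was not called (adjusted p = 0.139, limma). The call of *C1ra* was lost with any library left out (adjusted p = 0.0506 to 0.176, limma) and that of *Calr* without G-CSF replicate 2 (0.0567).

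Among the other lipid-handling genes, 9 of 24 tested fell and 1 rose. *Lgals3*, which encodes the lectin galectin-3, fell from 1543 ± 22.4 to 1136 ± 9.04 FPKM (SD, n = 2), and *Fabp4*, a fatty acid carrier of macrophages, from 32.0 ± 4.99 to 20.1 ± 0.659 FPKM. Their log2 fold changes were -0.44 ± 0.05 and -0.66 ± 0.10 (SE, adjusted p = 0.00451 and 0.00930, limma). The gene that rose was *Cst7*, which encodes cystatin F, an inhibitor of lysosomal proteases that is often seen beside *Trem2* and *Apoe* in lipid-associated macrophages. *Cst7* stood at 33.2 and 31.9 in Control libraries and 65.7 and 59.0 FPKM in the G-CSF group, a log2 fold change of 0.93 ± 0.06 (SE, adjusted p = 0.00146, limma). Its libraries did not overlap, and its change went the other way from those of *Lgals3* and *Fabp4*. *Spp1* (osteopontin) and *Lpl* (lipoprotein lipase) were not called, at 457 ± 44.2 and 595 ± 152 FPKM, and at 408 ± 12.4 and 371 ± 29.2 FPKM.

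Of the other scavenger receptors, 3 of 13 tested fell (23.1%) and 2 rose (15.4%), beside 11.4% and 12.6% of all genes tested. *Mgl2*, a galactose-binding lectin of macrophages and dendritic cells, fell by 0.73 on the log2 scale, *Olr1*, a receptor for oxidised lipoprotein, by 0.67, and *Cxcl16*, a membrane-bound chemokine that also binds oxidised lipoprotein, by 0.75. The receptors that rose were *Scarb1*, which binds high-density lipoprotein, with a log2 fold change of 0.22, and *Stab1*, with 0.55. *Scarb1* was not called without Control replicate 2 or G-CSF replicate 1 (adjusted p = 0.106 and 0.103, limma), and *Stab1* was not called with any library left out (0.0619 to 0.120). Of the other genes for the clearance of dying cells, 3 of 15 fell and 0 rose, with a list median of -0.04 (limma). *Mfge8*, a secreted bridge between dying cells and phagocytes, stood at 184 and 163 in Control libraries and 90.2 and 79.1 FPKM in G-CSF cultures. It fell by more than 2-fold, with a log2 fold change of -1.03 ± 0.08 (SE, adjusted p = 0.00208, limma). *Axl* stood at 89.8 and 82.7 in Control libraries and 60.4 and 55.4 FPKM in G-CSF libraries and fell by 0.57 on the log2 scale, and *Cd300lb*, an activating receptor of myeloid cells, fell by 0.42. *Rac1*, a small GTPase that drives engulfment, was not called (log2 fold change -0.15, adjusted p = 0.0575, limma).

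Macrophage identity genes bear on the name of the markers. *Csf1r*, the receptor for macrophage colony-stimulating factor, stood at 177 and 185 in Control libraries and 152 and 158 FPKM in the G-CSF group, and *Adgre1*, which encodes F4/80, at 64.4 ± 5.29 and 50.8 ± 4.29 FPKM (SD, n = 2). Both fell, by 0.23 and 0.34 on the log2 scale, but neither was called without Control replicate 2 (adjusted p = 0.0718 and 0.0798, limma) or without G-CSF replicate 1 (0.0754 and 0.0836). *Timd4*, *Clec4f* and *Vsig4*, genes of resident tissue macrophages, were listed at 0 in all libraries, and *Cd163* was at 0.206 ± 0.0651 and 0.195 ± 0.00495 FPKM. Other genes of the list were present, among them *Marco* at 22.1 ± 6.87 and 13.3 ± 3.14 FPKM and *Pf4* at 28.8 ± 3.29 and 29.0 ± 1.20 FPKM, neither of them called. Of 20 identity genes tested, 8 fell, and *Tmem119*, best known from microglia, rose from 3.67 and 2.49 FPKM to 6.57 and 5.92 FPKM, a log2 fold change of 1.02.

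Of 24 transcription factor genes of macrophages, 12 fell and 1 rose. *Irf5*, *Rxra*, *Egr2* and *Irf4*, the factor genes of the list with the smallest p, fell by 0.38, 0.55, 0.59 and 0.53 on the log2 scale. *Pparg*, a lipid-activated nuclear receptor, was the gene that rose, with a log2 fold change of 0.23, though it was not called with any library left out (adjusted p = 0.0571 to 0.122, limma), and *Spi1*, which encodes PU.1, was not called (log2 fold change -0.18, adjusted p = 0.0822, limma).

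Of 12 alternative activation genes tested, 4 fell and 1 rose. *Ccl17*, a chemokine, and *Alox15*, a lipoxygenase, fell by 0.94 and 0.92 on the log2 scale, while *Arg1*, which encodes arginase 1, was at 0.999 and 1.44 in Control libraries and 11.6 and 3.43 FPKM in G-CSF libraries. The rise of *Arg1* was uneven between the G-CSF libraries, with a log2 fold change of 2.30 ± 0.51 (SE, adjusted p = 0.0235, limma). With a library left out it ran from 1.44 without G-CSF replicate 1 to 3.17 without G-CSF replicate 2, and without Control replicate 1 *Arg1* was not called (adjusted p = 0.0562, limma). *Ccl17* was not called without Control replicate 1 either (adjusted p = 0.0592, limma), and its log2 fold change was -0.63 without G-CSF replicate 2. *Alox15* was not called in 3 of the 4 fits with a library left out (highest adjusted p = 0.0583, limma). None of the 3 was called without a filter on low genes. Of the 6 growth factor receptors and ligands tested, 5 fell, among them *Csf2ra* by 0.45 and *Csf3r*, the receptor for G-CSF itself, by 0.40. *Csf3r* is also a neutrophil gene.

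**Figure D4:**
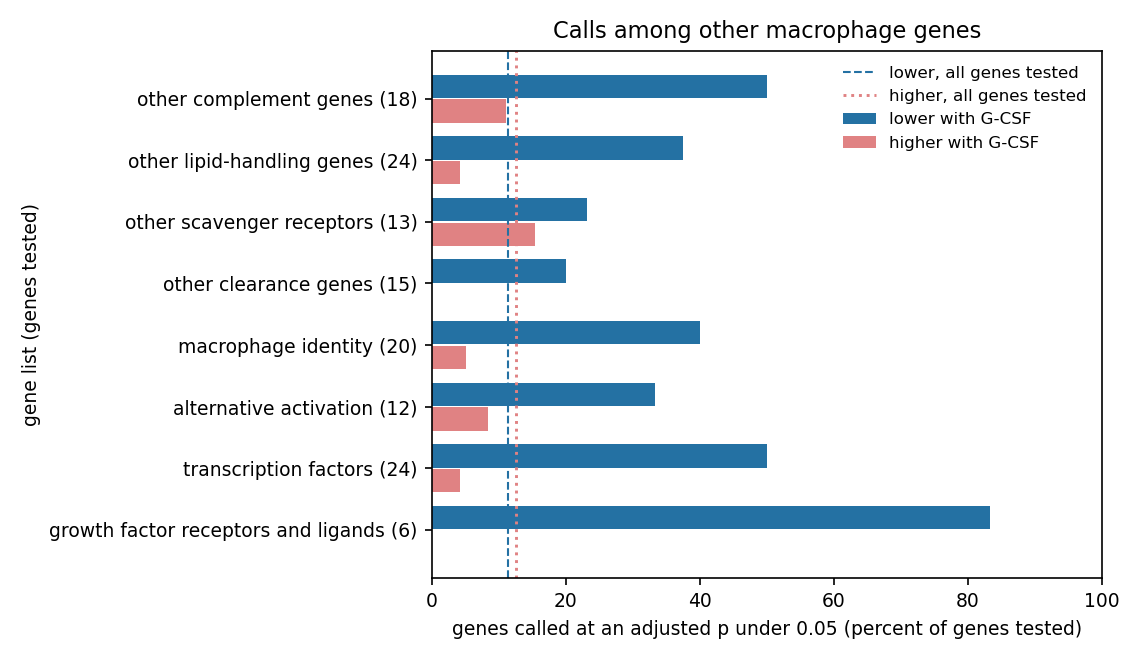
Share of the tested genes of each list, in percent, that limma called higher or lower with G-CSF, beside the share among all genes tested. The share called lower reached 83.3% for the growth factor receptors and ligands, beside 11.4% of all genes.

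Markers of other cell types moved with the groups. The counts of calls in these lists stand beside 11.4% of all genes tested called lower and 12.6% called higher. The summed FPKM of neutrophil genes was 70309.8 to 80821.6 in Control and 53900.9 to 54238.6 in the G-CSF group (9 of 11 tested called lower). *S100a8*, *S100a9* and *Ngp* were the highest in level of this list, and *S100a8* itself was not called (adjusted p = 0.0860, limma). Granulocyte precursor genes summed to 838 to 965 in Control and 2111 to 2246 in G-CSF cultures (5 of 5 called higher). Dendritic cell genes summed to 3234 to 3870 in Control and 1727 to 2173 in G-CSF libraries (5 of 10 lower). *Cd74*, *H2-Aa*, *H2-Ab1*, *H2-Eb1* and *Ccl22* made up nearly all of this sum. All of these but *Ccl22* were called lower, as was *Cd209a*, whereas *Flt3*, *Ccr7*, *Xcr1* and *Zbtb46* were not called. *Flt3* and *Xcr1* were low, at means of 0.61 and 0.20 FPKM over all libraries. Eosinophil genes summed to 556 to 658 in Control and 330 to 365 in G-CSF libraries (3 of 6 lower), and mast cell and basophil genes to 140 to 142 and 88.0 to 97.4 (5 of 7 lower). Monocyte genes summed to 2908 to 3006 and 2477 to 2696, with 1 of 7 called higher and 1 lower. The sum of the 10 macrophage markers was 911 and 943 in Control libraries and 729 and 802 FPKM in the G-CSF group. *Mrc1*, *Mgl2* and *Ccl17* are known from dendritic cells too, and the part of these other cell types in the changes of the macrophage markers was not tested.

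The remaining marker lists were low or carried by few genes. Lymphocyte genes summed to 14.6 to 18.9 FPKM in Control and 15.6 to 22.4 in G-CSF cultures (2 of 6 lower), stromal and endothelial genes to 21.3 to 22.4 and 25.0 to 26.1 (1 of 4 higher, 1 lower, *Col3a1* at 0), and erythroid genes to 0.447 to 1.71 and 0.605 to 0.885, with 0 tested. The liver list summed to 403 to 443 and 607 to 610 FPKM, nearly all of it *Hp* and *Trf*, which myeloid cells also express. *Hp* was called higher, with a log2 fold change of 0.63.

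The upstream sequence of the markers is shown because PU.1, C/EBP and other myeloid factors are known to act on promoters of macrophage genes. RefSeq promoter windows (GRCm38.p6) covered 8 of the 10 markers, all but *C1qa* and *Msr1*. In the 250 bases before the start, on either strand, 5 motifs were searched by their letters. For *C1qc* and *Mrc1* the end of this window lies inside the gene as annotated by GENCODE. The PU.1 core GAGGAA was found for 6 of 8 markers (*C1qb*, *C1qc*, *Apoe*, *Trem2*, *Mrc1* and *Cd68*) and in 23.3% of 32851 such windows of all genes. The AP-1 site TGANTCA was found for *Trem2* and *Cd68* (6.75% of all windows) and the C/EBP site TTGCNNAA for *Cd68* (9.56%). The E-box CACGTG (6.02%) and the STAT site TTCNNNGAA (7.02%) were found for 0 of the 8. No matches of different motifs overlapped, and a match is a description of the letters, not a bound site.

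Windows of *C1qb*, *Mrc1*, *Cd68* and *Apoe* are given 5′ to 3′ along the strand of the gene, with the matches in capitals. *C1qb*, *Mrc1* and *Cd68* stand for 3 of the groups above and were called lower, and *Apoe* was the marker with the opposite direction. The *C1qb* window (chr4:136886201-136886450, minus strand) held GAGGAA 30 to 25 bases before the start. The *Mrc1* window (chr2:14229164-14229391, plus strand, ending where the annotated gene begins) held GAGGAA 3 times, each on the opposite strand and so printed as TTCCTC. The *Cd68* window (chr11:69666171-69666420, minus strand) held GAGGAA, TTGCTAAA and TGAGTCA, the last in 2 copies. The *Apoe* window (chr7:19699189-19699438, minus strand, the first of 3 starts) opened with GAGGAA.
C1qb: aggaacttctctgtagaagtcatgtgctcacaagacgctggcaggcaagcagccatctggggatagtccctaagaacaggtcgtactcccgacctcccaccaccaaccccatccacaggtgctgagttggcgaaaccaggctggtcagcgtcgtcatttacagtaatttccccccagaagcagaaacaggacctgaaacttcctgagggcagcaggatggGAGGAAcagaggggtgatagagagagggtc
Mrc1: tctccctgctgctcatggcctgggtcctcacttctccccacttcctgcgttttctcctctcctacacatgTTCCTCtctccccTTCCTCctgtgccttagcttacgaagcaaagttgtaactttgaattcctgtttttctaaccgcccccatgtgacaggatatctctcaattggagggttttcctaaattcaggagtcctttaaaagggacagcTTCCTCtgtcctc
Cd68: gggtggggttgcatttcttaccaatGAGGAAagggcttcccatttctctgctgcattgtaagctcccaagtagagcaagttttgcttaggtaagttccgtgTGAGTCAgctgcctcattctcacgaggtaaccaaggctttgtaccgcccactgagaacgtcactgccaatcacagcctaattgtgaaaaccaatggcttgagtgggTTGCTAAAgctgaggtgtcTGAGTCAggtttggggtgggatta
Apoe: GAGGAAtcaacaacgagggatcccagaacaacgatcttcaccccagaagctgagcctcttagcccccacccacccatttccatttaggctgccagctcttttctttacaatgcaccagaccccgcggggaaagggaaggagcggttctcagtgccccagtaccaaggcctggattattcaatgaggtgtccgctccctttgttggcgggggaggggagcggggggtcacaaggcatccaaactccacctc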

How the data were processed

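Members and gene lists were chosen with earlier results of these data known. The authors deposited a table for each of the 4 libraries (2 Control, 2 G-CSF), with a value for each of 24346 genes. The values were taken as FPKM, from Cufflinks in the authors' processing notes, which also name TopHat2, Bowtie2, SAMtools and mm10, and from steps worth a single read in the low values. The annotation is not given in the sources used here. FPKM hides depth and assigns reads by an estimate. Reads were estimated from transcript lengths (GENCODE M21 and RefSeq, 23976 genes matched) less 210 bases, and 65.7% to 67.4% of low values came within 0.05 of a whole read.

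Groups and replicate numbers follow the labels. The filter, 10 estimated reads in 2 libraries and a sum of 15, left 11958 genes, which were tested with limma 3.58.1 (lmFit, eBayes with trend, two-sided) in R 4.3.3 on log2(FPKM + 0.1), without a replicate block, and p was adjusted by Benjamini-Hochberg. Alternatives were other scalings, filters, pseudocounts, voom, the block and each library left out. Besides the 10 markers, genes were named by rule: the 4 with the smallest p of each macrophage list, the 3 highest of each marker list and the 5 nearest to the C1q profile. *Calr*, *C1ra*, *C1s1*, *Spp1*, *Lpl*, *Stab1*, *Gas6*, *Pros1*, *Adgre1*, *Cd163*, *Marco*, *Pf4*, *Spi1*, *Pparg* and genes listed at 0 were added after their values were seen. So were the dendritic cell genes *H2-Ab1*, *H2-Eb1*, *Cd209a*, *Flt3*, *Ccr7*, *Xcr1* and *Zbtb46*, and *Cyp2e1* and *Serpina1a* of the liver list. A gene that the rule names is not reported here. Scripts were tested on simulated data.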

Additional observations from a re-analysis of the deposited data

How the results depend on the processing

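Of the 10 markers, 0 changed direction under any alternative. The 5 lower calls were the same genes under upper-quartile and median-ratio scaling and pseudocounts of 1 and 0.01 FPKM, while voom on estimated reads called 4. Without a filter 1 marker (*Cd68*) was called lower, and with at least 1 FPKM in 2 libraries 2 were (*Cd68* and *Mertk*). With 1 library left out, 0 to 3 were called lower and 0 higher. Of 32 other called genes with values in the text, 10 lost the call with some library left out. Among genes not called, the log2 fold change of *Cd163* ran from -0.26 to 0.18 with a library left out and that of *Pf4* from -0.11 to 0.13, and *Pf4* stood at -0.0122 under upper-quartile scaling. For the other macrophage lists, calls were 4 higher and 25 lower without a filter, and 5 to 6 higher and 32 to 40 lower with a library left out. Over all genes, calls numbered 882 higher and 744 lower without a filter, and 750 to 909 higher and 695 to 1004 lower with a library left out. Beyond 2-fold, a pseudocount of 1 FPKM gave 25 higher and 32 lower, and leaving out a library gave 42 to 74 higher and 79 to 125 lower. The cause was not tested.

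The labels give both groups replicate numbers without saying that a number marks a shared culture or animal. Deviations of same-numbered libraries correlated at 0.265 across 11958 genes, and with 2 pairs this does not show pairing. With the replicate block, 7 markers were called lower, beside 16.4% of all genes tested, and 1 was called higher (*Apoe*, adjusted p = 0.031, limma). *C1qc* and *Msr1* were those added to the lower calls (adjusted p = 0.0204 and 0.00361, limma). Of the other macrophage lists, 13 genes were called higher and 66 lower with the block. Over all genes, 4007 were called with it, against 2877 without it.

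With 2 libraries in each group, p-values rest on an error shared across genes. An estimated 7 to 17 reads limit what can be said of *C1qa*.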
